A study of Oryctolagus cuniculus with 18 samples.

Results

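The 200 genes described here were picked from the 29587 rabbit genes of the count table for a pattern across tissues. Each had a level in non-operated retina within set limits of that in non-operated RPE-choroid, and in retina all 6 samples from operated eyes lay above the highest non-operated sample. In RPE-choroid the lowest of the 6 operated samples did not lie above the highest non-operated one. Levels are gene counts scaled to a common library total (CPM), and changes are differences of group means of log2(CPM + 0.5). The non-operated tissue means, each with 0.5 CPM added, had to lie within 1 log2 unit of each other, and the mean retina level at 1 month had to reach 1 CPM. Without the added 0.5 CPM, 46 of the 200 were over 2-fold apart between the non-operated tissues. Of 9826 genes that met these limits, 1601 were separated in retina (16.3%), and 1351 of those overlapped in RPE-choroid. The 200 with the largest ratio of operated to non-operated retina were taken. The criteria use the operated and non-operated levels of both tissues, so every value comparing these is a description of what was chosen and carries no test.

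The study placed poly(CEP), a thermogelling polymer, in the eyes of male New Zealand White rabbits aged 4 to 6 months in place of the vitreous. Retina and RPE-choroid (the labels name the latter retinal pigment epithelium) were sequenced as polyA RNA from non-operated eyes and from eyes at 1 and 2 months after vitrectomy and filling, without induction of proliferative vitreoretinopathy. Each of the 6 groups held 3 samples, 18 in all. The paper lists the 2-month filled eyes without induction as fellow eyes of rabbits that had the induction in the other eye. The 1-month ones came from other rabbits, with no induced eye listed. Time therefore cannot be told apart from the state of the fellow eye. Eyes with vitrectomy and no polymer were not analysed here, so surgery and polymer cannot be told apart.

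The retina is the layered neural tissue that senses light and passes the signal to the brain. The retinal pigment epithelium is the single cell layer beneath it that takes up shed photoreceptor outer segments and carries nutrients from the choroid, the vascular bed behind it. Injury to the retina is known to activate its glia and immune cells, and the pigment epithelium and choroid hold immune and vascular cells of their own. The identifiers of the 200 genes could not be paired with gene names here, so their functions are not described and the tissues could not be checked against named markers. In bulk tissue, a change in the number of cells of a type and a change in RNA per cell cannot be told apart.

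The higher mean levels of the 200 genes were not seen in retina samples only. In RPE-choroid, 188 of the 200 had a higher mean level at 1 month than in non-operated eyes (94.0%, against 67.3% of the 9826 genes that met the limits on tissue ratio and minimum level). At 2 months 179 did (89.5%, against 52.4%). The higher mean was present at both times for 168 genes, at 1 month alone for 20, at 2 months alone for 11 and at neither time for 1. RNA of genes high in non-operated retina, described below, also differed between the RPE-choroid groups. Its mean log2 level was 4.41 without operation, 6.54 at 1 month and 3.41 at 2 months. Its part in these counts was not tested. The overlap in RPE-choroid was set on the range of single samples. Requiring in its place that the RPE-choroid means be no higher left 3 of the 200.

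The genes had low levels in non-operated eyes. Their median level was 2.14 CPM in non-operated retina, against 29.4 CPM for the 9826 genes, and 2.32 CPM in non-operated RPE-choroid. The 9826 are thus a reference set at a higher level. In operated retina it was 6.94 CPM at 1 month and 7.08 CPM at 2 months. Operated RPE-choroid had 5.20 and 3.44 CPM at these times. Within the limit on tissue ratio, 86 genes were higher in non-operated retina and 114 in non-operated RPE-choroid, and 107 lay within 0.5 log2 units of equal. A single gene held 28.9% of the summed operated-retina level, and the 3 highest held 50.3%.

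The median change in retina was 1.33 log2 units at 1 month (quartiles 1.09 and 1.71) and 1.24 at 2 months. In RPE-choroid it was 0.95 at 1 month (quartiles 0.47 and 1.48) and 0.45 at 2 months. The 9826 genes had medians of 0.11, 0.11, 0.15 and 0.02 in the same order. At 1 month the RPE-choroid change was at least 50% of the retina change for 129 genes and exceeded it for 54. At 2 months the corresponding counts were 55 and 5. The 72 genes with an equal or larger retina ratio whose ranges were separated in both tissues had median changes of 1.49 (1 month) and 1.40 (2 months) in retina. Their RPE-choroid medians were 1.08 and 0.81.

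**Figure D1:**
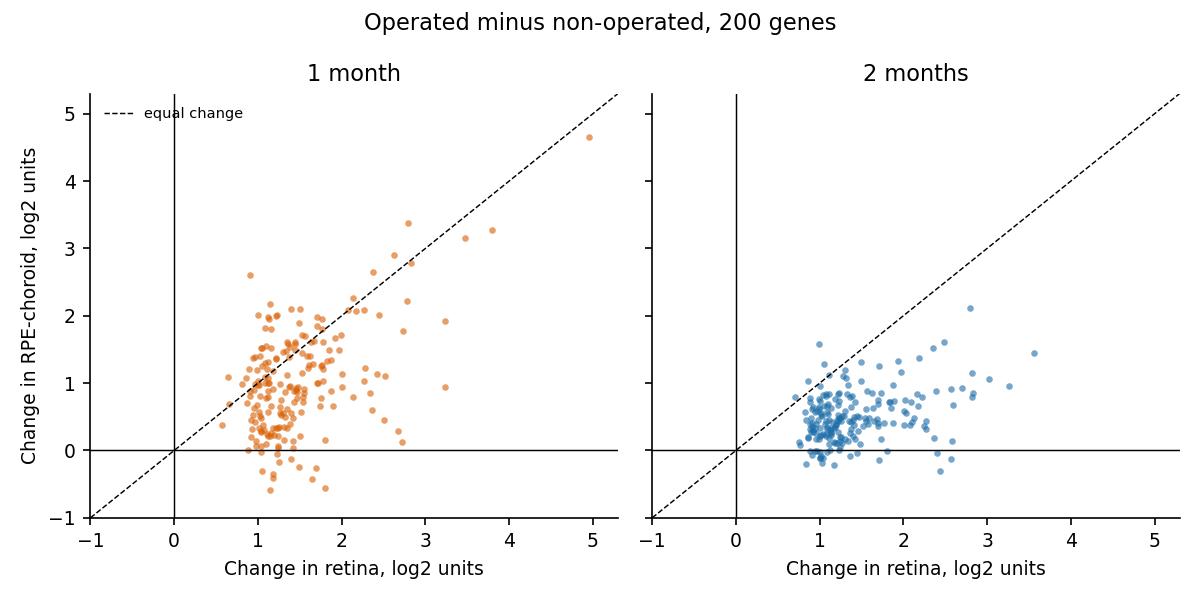
Change of each of the 200 genes in retina (x axis) and RPE-choroid (y axis), as operated minus non-operated group means of log2(CPM + 0.5), at 1 month (left) and 2 months (right). Each point is 1 gene and the dashed line marks equal change. At 1 month 54 genes lie above the line, and at 2 months 5 do.

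The members were not equal in size of change. The 50 genes with the largest retina ratio had median changes of 2.10 and 2.15 log2 units in retina at 1 and 2 months. Their RPE-choroid changes were 1.55 and 0.67. For the 50 with the smallest ratio these were 1.04 and 1.00 in retina, against 0.66 and 0.34 in RPE-choroid. At the limits of the selection, the gene ranked 200 had a ratio of 0.966 log2 units and the next gene 0.964. The largest tissue ratio among members was 0.994, and 730 genes met all else but exceeded the limit, the nearest at 1.01. The lowest mean retina level at 1 month was 1.02 CPM inside and 0.979 CPM just outside, where 23 genes met all else. In RPE-choroid, the lowest operated sample was 0.00 log2 units from the highest non-operated one for the members nearest the limit, and 0.0031 above it for the nearest gene outside.

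The level of the group was followed in each sample. In non-operated retina the median over the 200 genes was 2.12, 2.06 and 2.07 CPM in replicates 1, 2 and 3. At 1 month it was 6.14, 6.41 and 8.71 CPM, and at 2 months 7.38, 8.28 and 4.83 CPM. The non-operated retinas were close together, and replicate 3 at 2 months was the lowest operated retina. In RPE-choroid the medians were 2.31, 2.06 and 2.37 CPM without operation, 5.19, 5.47 and 5.95 CPM at 1 month, and 4.46, 4.20 and 2.64 CPM at 2 months. Replicate 3 at 2 months stood close to the non-operated samples. As mean log2(CPM + 0.5), the group level in retina was 1.83 ± 0.02 (SD, n = 3) without operation, 3.31 ± 0.17 at 1 month and 3.25 ± 0.43 at 2 months. The RPE-choroid values were 1.90 ± 0.07, 2.92 ± 0.07 and 2.40 ± 0.38.

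**Figure D2:**
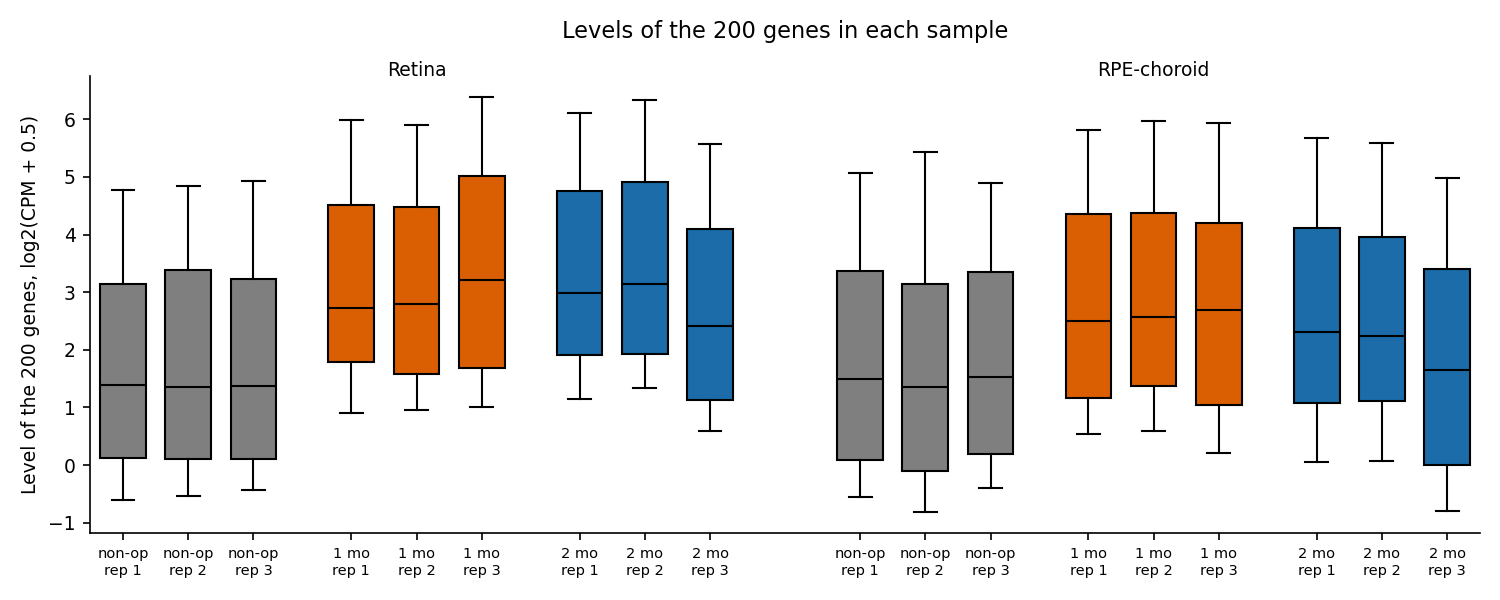
Levels of the 200 genes as log2(CPM + 0.5) in each of the 18 samples, with retina on the left and RPE-choroid on the right. Boxes span the quartiles with a line at the median, and whiskers reach the 10th and 90th percentiles over genes. RPE-choroid replicate 3 at 2 months has a median of 2.64 CPM, near the non-operated samples.

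A single library accounted for many of the RPE-choroid overlaps. Of the 9826 genes, 4.44% had all 6 operated RPE-choroid samples above every non-operated one, which the selection bars. In 96 of the 200 genes (48.0%, against 8.08% of the 9826), 5 of the 6 operated RPE-choroid samples were above every non-operated one. The sample that was not above was replicate 3 at 2 months in 71 of the 96, replicate 3 at 1 month in 15, and replicate 2 at 1 month, replicate 2 at 2 months and replicate 1 at 1 month in 4, 4 and 2. The other members had 4 samples above (45 genes), 3 (34), 2 (12), 1 (8) or 0 (5). All 3 samples were above at 1 month for 121 genes (60.5%, against 22.7%) and at 2 months for 32 (16.0%, against 10.9%). Without replicate 3 at 2 months, the selection kept 129 of the 200.

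Taken 1 sample at a time, 161, 162 and 143 of the genes were above every non-operated RPE-choroid sample in replicates 1, 2 and 3 at 1 month. The corresponding shares of the 9826 genes were 44.1%, 44.5% and 38.5%. At 2 months the counts were 149, 132 and 47 in replicates 1, 2 and 3, against 36.3%, 32.8% and 20.2%. The count for replicate 3 at 2 months was 23.5% of the genes, near the share in the 9826.

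**Figure D3:**
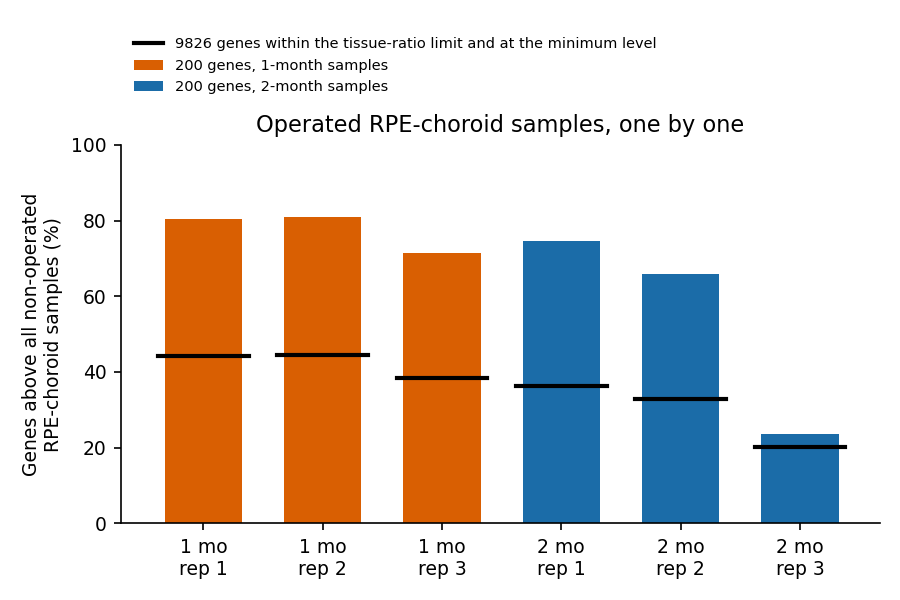
Percentage of genes above all 3 non-operated RPE-choroid samples (y axis) in each operated RPE-choroid sample (x axis). Bars are the 200 genes and black lines are the 9826 genes within the tissue-ratio limit and at the minimum level, which have a higher median level. Replicate 3 at 2 months has 23.5% against 20.2%, and the other 5 samples have 66.0% to 81.0%.

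The RPE-choroid samples also differed in how much retina-high RNA they held. The 200 genes with the largest excess in non-operated retina over non-operated RPE-choroid had a mean log2 level of 5.49, 0.81 and 6.91 in non-operated RPE-choroid replicates 1, 2 and 3. At 1 month the level was 6.77, 6.99 and 5.85, and at 2 months 4.85, 4.91 and 0.47. Replicate 3 at 2 months and non-operated replicate 2 were thus the lowest in retina-high RNA. In retina, the RPE-choroid-high genes had a mean of 0.51 to 0.59 without operation, 1.36 to 1.83 at 1 month and 1.11 to 1.99 at 2 months, with the lowest operated value in replicate 3 at 2 months. Across retina samples the group level moved with the RPE-choroid-high level, and its part in the result was not tested. In non-operated RPE-choroid the group level was 1.83 to 1.97 while the retina-high level spanned 0.81 to 6.91. The selection favoured this, because it kept genes with similar levels in the non-operated tissues, so these values are a description.

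**Figure D4:**
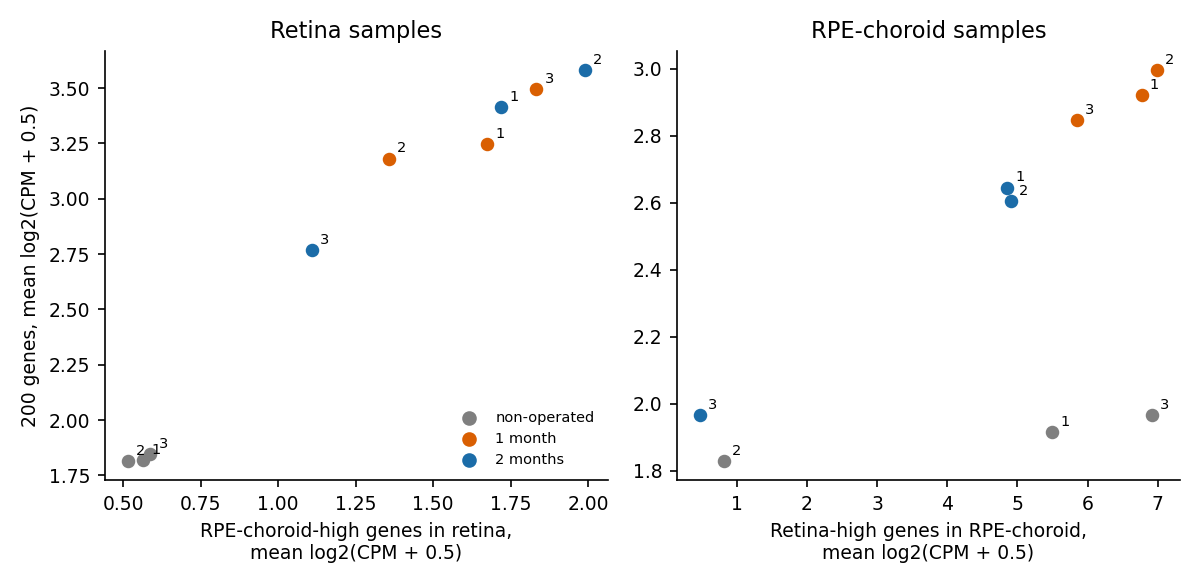
Mean level of the 200 genes (y axis) against the mean level of genes high in the other tissue (x axis), both as mean log2(CPM + 0.5), in the 9 retina samples (left) and the 9 RPE-choroid samples (right). Points are samples, numbered by replicate. Replicate 3 at 2 months is the lowest operated sample on both axes in both panels.

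Each operated RPE-choroid sample was set beside the non-operated one nearest to it in retina-high level. Replicates 1 and 2 at 1 month, beside non-operated replicate 3, were higher in 192 and 190 of the 200 genes, with median differences of 0.85 and 0.92 log2 units. Replicate 3 at 1 month, beside non-operated replicate 1, was higher in 162 (median 0.84). Replicates 1 and 2 at 2 months, beside the same sample, were higher in 184 and 174 (medians 0.71 and 0.67). In these 5 pairs the 9826 genes were higher in 58.0% to 63.9%. Replicate 3 at 2 months, beside non-operated replicate 2, was higher in 106 (median 0.03), against 49.0% of the 9826. These are levels the selection used, and they are given as a description.

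Single genes show the range of patterns. ENSOCUG00000022375 ranked 1 by the retina ratio. It was at 0.28, 0.07 and 0.13 CPM in non-operated retina replicates 1, 2 and 3, which are 9, 2 and 4 counts. It reached 11.6, 9.89 and 66.9 CPM at 1 month and 6.70, 6.36 and 1.42 CPM at 2 months. The groups did not overlap in retina, and replicate 3 at 1 month stood far above the rest. Non-operated RPE-choroid had 0.96, 0.34 and 0.30 CPM. Operated RPE-choroid had 27.2, 40.6 and 13.0 CPM at 1 month and 21.9, 5.66 and 0.077 CPM at 2 months. Of the 6 operated samples 5 were above the highest non-operated one, and replicate 3 at 2 months was below all 3. The fitted log2 fold change in retina at 1 month was 7.24 (SE 1.13), and 5.87 without retina replicate 3 at 1 month. The fitted RPE-choroid value at 1 month was 5.50 (SE 1.48).

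ENSOCUG00000032372 had the highest level of the group in operated retina. It was at 1116, 1237 and 1008 CPM in non-operated retina, 2648, 3148 and 2386 CPM at 1 month and 2541, 2901 and 1294 CPM at 2 months. Its RPE-choroid levels were 1815, 1755 and 1273 CPM without operation, 2241, 2613 and 2053 CPM at 1 month, and 1889, 2337 and 1616 CPM at 2 months. All 3 RPE-choroid samples at 1 month were above the non-operated ones, and replicate 3 at 2 months was inside their range. Its fitted log2 fold change at 1 month was 1.15 (SE 0.25) in retina and 0.38 (SE 0.25) in RPE-choroid.

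ENSOCUG00000013498 and ENSOCUG00000026851 had the lowest RPE-choroid changes of the group at 1 month. ENSOCUG00000013498 was at 1.38, 1.95 and 1.55 CPM in non-operated retina, 4.68, 3.34 and 4.64 CPM at 1 month and 4.81, 7.97 and 2.76 CPM at 2 months. In RPE-choroid it was at 1.22, 2.83 and 0.93 CPM without operation, 1.02, 0.98 and 0.59 CPM at 1 month, and 4.42, 4.01 and 2.97 CPM at 2 months. Its 2-month RPE-choroid samples were above all the others, and its 1-month samples overlapped the non-operated ones. The fitted log2 fold change of 2 months against 1 month was 2.21 (SE 0.49), with an adjusted p of 0.0519 by edgeR's quasi-likelihood test. At 1 month against non-operated it was -1.10 (SE 0.48), and -0.40 without non-operated RPE-choroid replicate 2.

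ENSOCUG00000026851 was at 1.38, 0.90 and 1.08 CPM in non-operated retina, 4.85, 3.06 and 8.65 CPM at 1 month and 3.10, 3.72 and 2.69 CPM at 2 months. The RPE-choroid samples were at 3.10, 2.21 and 1.20 CPM without operation, 1.21, 1.07 and 1.42 CPM at 1 month, and 1.73, 1.90 and 5.89 CPM at 2 months. The 1-month RPE-choroid samples overlapped the non-operated ones, and replicate 3 at 2 months was the highest RPE-choroid sample. The fitted RPE-choroid change at 2 months was 0.56 (SE 0.60), and -0.36 without that replicate.

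Fits across all genes gave the following calls at an edgeR adjusted p under 0.05, given as a description because the contrasts were used in the selection. In retina 174 of the 200 passed as higher at 1 month (10.9% of all genes tested passed in that direction) and 159 at 2 months (8.21%), 147 of them at both times. Without non-operated retina replicate 1 or 3 the count at 1 month was 106 or 113 (5.25% or 5.92% of all genes in that direction). At 2 months it was 72 and 77 without retina replicates 2 and 1 of that time (3.74% and 3.89% of all genes). It was 88, 104 and 84 without non-operated replicates 1, 2 and 3 (4.05%, 5.41% and 4.35% of all genes). In RPE-choroid 1 of the 196 members tested passed as higher at 1 month (0.0123% of all genes) and 0 at 2 months (0%). With replicate number as a block, 0 members and 0 genes overall passed at 1 month. That block joined same-numbered RPE-choroid samples of different groups, which the numbers were not taken to pair. At an unadjusted p under 0.05 by edgeR, 107 were higher and 1 lower at 1 month (7.82% and 13.3% of all genes), and 47 higher and 0 lower at 2 months (6.84% and 3.85%). DESeq2 called 74 of 195 members as higher at 1 month (37.9%, against 3.7% of all genes) and 6 at 2 months (3.08%, against 1.62%).

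The RPE-choroid count at 1 month rested on single samples, with 38 members called higher without non-operated replicate 3 (19.4%, against 4.05% of all genes) and 0 without any of the other non-operated or 1-month samples. The biological coefficient of variation was 0.234 in retina and 0.416 in RPE-choroid. The called member ranked 80 by retina ratio. It was at 18.5 ± 2.56 CPM (SD, n = 3) in non-operated RPE-choroid, 56.1 ± 5.23 CPM at 1 month and 23.4 ± 4.80 CPM at 2 months. In retina it was at 24.6 ± 0.73, 68.4 ± 13.3 and 65.5 ± 13.8 CPM. Its level at 1 month was thus high in both tissues, and at 2 months in retina.

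By an interaction term in edgeR at an adjusted p under 0.05, the retina change was larger than the RPE-choroid change for 16 members at 1 month. In that direction 5.43% of all genes passed. At 2 months 4 members passed (0.475% of all genes). This fit did not pair the tissues by replicate number. With replicate number as a block the counts were 4 and 1 (2.0% and 0.5% of members, against 3.21% and 0.107% of all genes), so at 1 month the share of members was below that of all genes. Of the members called, 2 were called at both times. The 16 had a median change of 1.74 log2 units in retina and 0.10 in RPE-choroid at 1 month, and 6 of them had a lower mean in operated RPE-choroid. ENSOCUG00000026851 and ENSOCUG00000013498 were among the 16. Leaving out single samples moved the first count between 1 (without RPE-choroid replicate 2 at 1 month) and 39 (without non-operated RPE-choroid replicate 3). In the latter, 36 of the 39 had the larger change in retina, and 19.5% of members were called in either direction against 19.3% of all genes. Leaving out single samples moved the second count between 0 and 17 (without retina replicate 3 at 2 months). The 17 were 8.5% of members, against 1.33% of all genes. The count of 0 was reached without RPE-choroid replicate 1 or 2 or retina replicate 1 or 2 at 2 months. It was also 0 without non-operated retina replicate 1 or 2. Of the single samples used at 1 month, only RPE-choroid replicate 3 at 1 month left the first count within 1.5 times of 16. Among those used at 2 months, only RPE-choroid replicate 3 at 2 months and non-operated RPE-choroid replicate 3 left the second count within 1.5 times of 4.

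The levels at 2 months were also compared with those at 1 month. In retina 80 members were higher and 120 lower at 2 months, and 0 of 200 passed the edgeR adjusted p (0.0063% of all genes passed as higher and 0% as lower). The smallest adjusted p among members was 0.552. At an unadjusted p under 0.05 by edgeR, 7 were higher and 8 lower (1.86% and 2.17% of all genes), and DESeq2 called 1 as higher (0.234% of all genes). All 3 samples at 2 months lay below all 3 at 1 month for 8 members (4.0%, against 3.39% of the 9826) and above for 9 (4.5%, against 4.29%). No difference between the times was detected in retina for the group, with a median change of -0.08 log2 units. The selection required every operated retina sample, at 1 month and at 2 months, to lie above the highest non-operated one. Genes back at the non-operated level by 2 months were thus left out beforehand. The comparison therefore cannot tell whether raised levels are held, and it describes only members chosen as raised at both times.

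In RPE-choroid the levels at 2 months were lower than at 1 month for most members. The mean was lower for 150 of 200, and the median difference was -0.51 log2 units against -0.13 for the 9826 genes. All 3 samples at 2 months lay below all 3 at 1 month for 82 members (41.0%, against 26.6%) and above for 19 (9.5%, against 9.76%). By edgeR 0 of 196 members passed the adjusted p in either direction (0% of all genes), with a smallest value of 0.0503. Unadjusted, 55 were lower (28.1%, against 11.5% of all genes) and 16 higher (18.9% of all genes), and DESeq2 called 42 lower (8.11% of all genes) and 7 higher (12.8% of all genes). In either direction DESeq2 called 25.1% of members and 21.0% of all genes. The selection can be met by 1 low 2-month library, so it bears on this comparison too. Without RPE-choroid replicate 3 at 2 months edgeR called 1 member (0.508%, against 0.163% of all genes). Retina-high RNA was also lower at 2 months than at 1 month in every RPE-choroid sample, and its part in the result was not tested.

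Replicate 3 of the operated groups stood apart from replicates 1 and 2 in both tissues. In retina at 1 month it was the highest of the 3 for 119 members and the lowest for 56. In RPE-choroid at 1 month it was the highest for 70 and the lowest for 102. Of the 119, 60 were highest in RPE-choroid replicate 3 too and 38 lowest, and of the 56, 6 were highest and 49 lowest. At 2 months it was the lowest for 179 members in retina and for 150 in RPE-choroid, 135 of them shared.

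**Figure D5:**
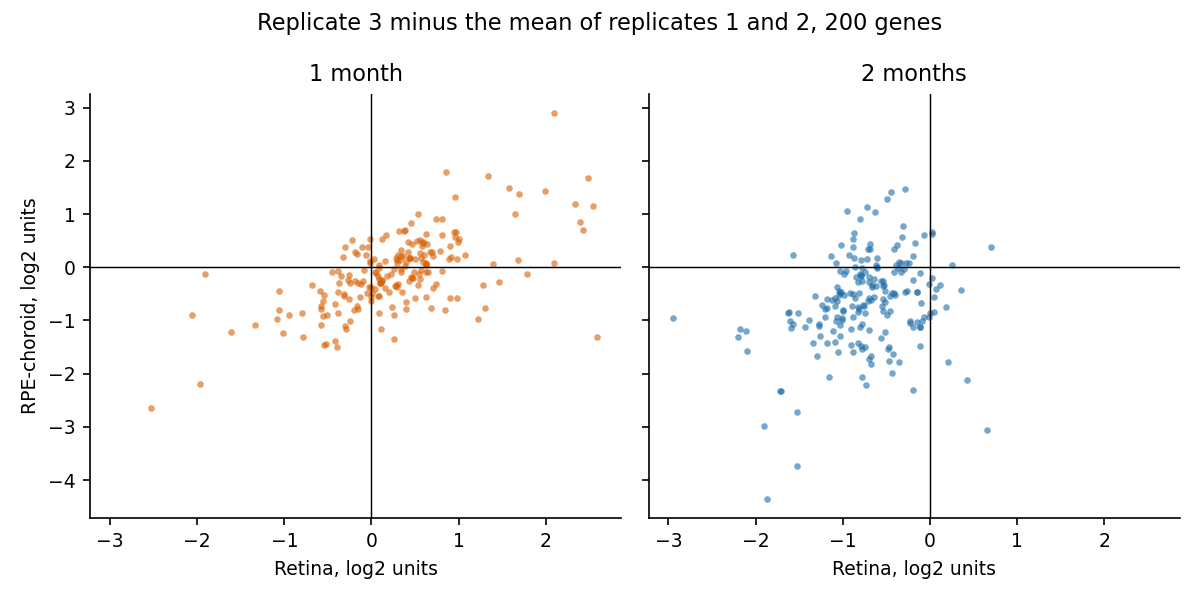
Replicate 3 minus the mean of replicates 1 and 2, in log2(CPM + 0.5), for each of the 200 genes in retina (x axis) and RPE-choroid (y axis), at 1 month (left) and 2 months (right). At 2 months replicate 3 is the lowest retina sample for 179 genes and the lowest RPE-choroid sample for 150.

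Departures of each sample from its group mean were compared between the tissues over the 200 genes, which are not independent replicates. Same-numbered samples correlated at 0.69, 0.33 and 0.63 for replicates 1, 2 and 3 at 1 month, 0.34, 0.22 and 0.32 in non-operated eyes, and 0.31, 0.17 and 0.28 at 2 months. At 1 month retina replicate 2 correlated more with RPE-choroid replicate 1 (0.49) than with its own number (0.33). Retina replicate 1 correlated at 0.31 with RPE-choroid replicate 2, below its same-number value. At 2 months retina replicates 1 and 2 correlated at 0.18 and 0.04 with RPE-choroid replicates 2 and 1, below their same-number values. The 9826 genes had same-number values of 0.61, 0.41 and 0.41 in non-operated eyes. Theirs were 0.51, 0.49 and 0.58 at 1 month and 0.44, 0.37 and 0.47 at 2 months. Positive same-number values were thus not particular to the 200. In the 9826, retina replicate 2 at 1 month correlated at 0.40 with RPE-choroid replicate 1, below its same-number value. Deviations within a group sum to 0 over its 3 samples, so these values are not independent of each other.

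The median SD between replicates over the 200 genes was 0.20, 0.29 and 0.45 log2 units in non-operated, 1-month and 2-month retina, against 0.15, 0.15 and 0.18 for the 9826. In RPE-choroid it was 0.34, 0.29 and 0.46, against 0.22, 0.19 and 0.20. The 9826 had the higher level, and the part of level in this difference was not tested.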

How the data were processed

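Reads were trimmed by the authors (Trim Galore), mapped by HISAT2 to the rabbit build OryCun2.0 and summed for each Ensembl gene by HTSeq. The deposited values are raw counts. The submitters' processing notes name human builds, while the gene identifiers are of rabbit. Gene counts ranged from 22335005 to 33505730 per sample, and the 5 HTSeq summary lines were left out. CPM used these totals.

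Each tissue was fitted with edgeR 4.0.16 in R 4.3.3 (TMM, filterByExpr at both 10 counts and 15 in total, quasi-likelihood, two-sided, Benjamini-Hochberg). Tissue differences were fitted as an interaction over all 18 samples. DESeq2 1.42.0, other normalisations, filters, sets of samples and pseudocounts, and each sample left out, were alternatives. Each SE given with a fitted change is the absolute log2 fold change divided by the square root of the quasi-likelihood F statistic. The scripts were tested on simulated data. The design gives the 3 samples of a group as biological replicates.

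Replicate numbers come from the sample labels. Deviations of same-numbered retina and RPE-choroid samples correlated at 0.125 to 0.536, so the numbers were taken to pair them. The main interaction fit left this pairing out, and the version with replicate number as a block used it. Those of same-numbered RPE-choroid samples at 2 months and 1 month correlated at 0.177 to 0.399. The paper lists different rabbits for the filled eyes without induction at 1 and 2 months. That correlation therefore does not pair animals between the times. For the other pairs of groups the numbers were not taken to pair samples. The block fits of a single tissue, run as an alternative, still joined same-numbered samples across its groups.

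The members and lists were chosen with earlier results of these data known. The gene name table (mOryCun1.1, 38822 entries) matched 0 Ensembl identifiers, so the marker and pathway lists were not used. Identifiers are printed for the gene of rank 1, the one highest in operated retina, and the 2 with the lowest RPE-choroid change at 1 month, chosen after their values were seen.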

Additional observations from a re-analysis of the deposited data

Results flagged for a closer look

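Members whose change differed between retina and RPE-choroid by the unpaired edgeR interaction test numbered 16 at 1 month and 4 at 2 months. All had the larger change in retina (8.0% and 2.0% of members, against 5.43% and 0.475% of all genes). The selection favoured this direction. With replicate number as a block the counts were 4 and 1 (2.0% and 0.5% of members, against 3.21% and 0.107% of all genes).

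The share of multiply aligned reads, which no comparison uses, was above the highest non-operated sample of the same tissue in 6 operated samples. It was 11.66% and 11.09% in retina replicates 1 and 2 at 2 months. In RPE-choroid it was 9.62% in replicate 3 at 1 month and 13.67%, 13.22% and 9.96% in replicates 1, 2 and 3 at 2 months. Its part in the results was not tested.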

How the results depend on the processing

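Leaving out 1 sample at a time gave 106 to 150 members called in retina at 1 month (174 with all samples). At these ends 5.25% and 8.27% of all genes were called higher (10.9% with all samples). At 2 months the range was 72 to 186 (159), with 3.74% and 14.5% of all genes called higher (8.21%). For 2 months against 1 month in retina the count was 0. In RPE-choroid leaving out 1 sample gave 0 to 38 at 1 month (1), 0 to 1 at 2 months (0) and 0 to 1 for 2 months against 1 month (0). The 38 came with 4.05% of all genes called higher. Each count of 1 was without RPE-choroid replicate 3 at 2 months, with 0.145% and 0.163% of all genes called. The tissue difference had 1 to 39 at 1 month (16), with 2.37% and 19.3% of all genes called in either direction (5.44%). At 2 months it had 0 to 17 (4), and the 17 came with 1.33% of all genes (0.522%). The selection kept 129 to 200 members.

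With the replicate block, the RPE-choroid count at 1 month was 0 and the tissue difference counts were 4 and 1, and no other count of calls moved by over 1.5 times. DESeq2 called 1 member in retina for 2 months against 1 month, 74, 6 and 49 in RPE-choroid (1 month, 2 months, and 2 months against 1 month), and 25 and 15 for the tissue difference (12.6% and 7.54%, against 9.44% and 1.66% of all genes). Fitting all 18 samples gave 56 at 1 month in RPE-choroid (28.0% of members and 8.74% of all genes). All 56 were higher, against 3.12% of all genes in that direction. The same fit gave 42 for 2 months against 1 month (21.0%, against 22.5%). Of these, 36 were lower (9.27% of all genes) and 6 higher (13.2% of all genes). Fitting only the 2 groups compared gave 0 and 32 (16.3%, against 18.5%). Of the 32, 25 were lower (6.19% of all genes) and 7 higher (12.3% of all genes). Without a filter on low counts, 6 were called in RPE-choroid for 2 months against 1 month (3.0%, against 2.02% of all genes). All 6 were lower, against 0.311% of all genes in that direction. The tissue difference then had 9 and 2 (4.5% and 1.0%, against 3.04% and 0.225% of all genes). With at least 10 counts in every sample, the RPE-choroid counts were 2 at 1 month and 17 for 2 months against 1 month, and the tissue difference at 2 months 2. Upper-quartile normalisation gave a 1-month RPE-choroid count of 2 (1.02%, all genes 0.0429%). RLE gave 2 for the tissue difference at 2 months (1.0%, all genes 0.398%). The cause was not tested.

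The selection kept 107 members at a tissue ratio under 0.5 log2 units, 117 at 5 CPM or more, and 3 with the RPE-choroid criterion on means. With a pseudocount of 1 the median changes at 1 month were 1.12 in retina and 0.83 in RPE-choroid. The counts of members with a higher RPE-choroid mean, and of the 150 lower at 2 months (134 to 154 without 1 sample), stayed within 1.5 times of their values; these checks were chosen after seeing the data. In non-operated retina 33 members had fewer than 30 counts over the 3 samples, which limits the precision of their changes.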
